A study of Mus musculus with 12 samples.

Results

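The genes described here encode the MHC class I antigen presentation pathway: the class I heavy chains H2-K1 and H2-D1, their light chain B2m, the peptide transporter subunits Tap1 and Tap2, the loading factor Tapbp, the immunoproteasome subunits Psmb8, Psmb9 and Psmb10, and the transcriptional activator Nlrc5. They are defined by gene symbol, and all 10 were among the 11022 genes of the deposited table. RNA sequencing measured mRNA in 12 samples of P14 cytotoxic T lymphocytes (CTL), mouse CD8+ T cells grown from LCMV-P14 TCR transgenic mice whose T cell receptor (TCR) recognises the gp33-41 peptide. The cells were activated with peptide, interleukin 2 (IL-2) and interleukin 12, expanded in IL-2, and kept in 20 ng/mL IL-2 in every group. There were 4 groups of 3 biological replicates: unstimulated CTL, CTL retriggered for 4 h with peptide at 100 ng/mL (TCR), CTL retriggered with 10 µM IC87114, an inhibitor of PI3K p110δ (TCR + PI3Kdi), and CTL retriggered with 2 µM PD184252, an inhibitor of MEK (TCR + MEKi). An inhibitor without peptide was not analysed here, so both inhibitor groups carry the peptide as well. The cells came from the lymph nodes or spleens of 3 adult female mice. All the cells carry 1 transgenic TCR, and the peptide was added to the culture medium.

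MHC class I molecules display short peptides from inside the cell to CD8+ T cells. The proteasome cuts proteins into peptides, and immune cells exchange its constitutive catalytic subunits for the immunoproteasome subunits. The transporter TAP carries the peptides into the endoplasmic reticulum, where tapasin (Tapbp) holds TAP next to an empty heavy chain with B2m until a peptide binds. NLRC5 activates the class I genes and several of the processing genes, and interferon-γ, acting in part through IRF1, is the textbook inducer of the whole set. The P14 receptor sees gp33-41 bound to H2-Db, the product of H2-D1.

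Values are FPKM, that is reads relative to exon length and library size, which the authors computed after TMM scaling, so that levels of different genes can be compared. The effective depth, estimated approximately from the steps between low values, ran from 7840000 to 13260000 reads per sample, and each of the 10 genes was covered by an estimated 538 to 32800 reads in every sample. The table lists 2 to 73 genes of a sample at 0. The 6 CTL markers (Cd8a, Cd8b1, Cd3e, Cd3d, Gzmb and Prf1) were all present, with a summed level of 9752 to 16134 FPKM. Of 18 markers of CD4 T cells, B cells, NK cells and myeloid or class II antigen presenting cells, 5 were in the table (Cd4, Itgax, H2-Ab1, Cd74 and Klrb1c), and their summed level was 16.5 to 22.9 FPKM in unstimulated CTL, 18.0 to 23.4 in TCR, 12.1 to 19.3 in TCR + PI3Kdi and 13.99 to 17.74 in TCR + MEKi. The B cell markers Cd79a, Cd79b, Ms4a1 and Pax5 and the myeloid markers Csf1r, Adgre1, Lyz2, Cd14 and Flt3 were not in the table. In bulk samples, a change in the number of cells of a type and a change in the RNA of each cell cannot be told apart.

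The 3 class I chains were among the most abundant mRNA of these CTL, whereas the processing genes and Nlrc5 lay lower. In unstimulated CTL the level of B2m was 2671 ± 114 FPKM (SD, n = 3), 7th of the 11022 genes. H2-D1 stood at 1121 ± 50.1 FPKM and H2-K1 at 1038 ± 40.3 FPKM, and Psmb8 followed at 404 ± 41.8 FPKM. Psmb9 lay at 169 ± 15.4 FPKM. Tap2, Psmb10, Tap1 and Tapbp stood close together, between 103 and 118 FPKM, and Nlrc5 was lowest at 53.1 ± 1.13 FPKM. Together the 10 genes held 1.23% ± 0.0153 of the FPKM sum in unstimulated CTL, 0.838% ± 0.0298 in TCR, 0.917% ± 0.0351 in TCR + PI3Kdi and 1.05% ± 0.0515 in TCR + MEKi. The sum itself rose, from a mean of 480159 FPKM in unstimulated CTL to 639396 in TCR. It was 563394 in TCR + PI3Kdi and 533000 in TCR + MEKi, so a lower share is not by itself a lower level.

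Retriggering the TCR for 4 h lowered the processing genes and Nlrc5, while the class I chains did not pass the test. By limma on log2(FPKM + 0.1) with Benjamini-Hochberg adjustment over all genes, 7 of the 10 genes were lower in TCR than in unstimulated CTL at an adjusted p under 0.05, against 34.9% of all genes, and 0 were higher, against 33.6% of all genes. Of these, 4 fell more than 2-fold (Nlrc5, Psmb9, Tap2 and Tap1), against 11.1% of all genes. The median log2 fold change of the 10 was -0.89, beside -0.01 over all genes. Levels of FPKM depend on the scaling: when each sample was rescaled to 1 common FPKM sum (the TPM scale), the median over all genes moved to -0.41 and the genes called higher made up 20.0% of all calls in place of 49.0%. Relative to that median, 9 of the 10 lay below it and B2m above it, as on the deposited scale. After quantile normalisation, which gives all samples 1 distribution of values, all 10 lay below the median of -0.05 and all 10 were called lower. In that setting 7524 of the 11022 genes were called, 45.8% of them higher.

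**Figure D1:**
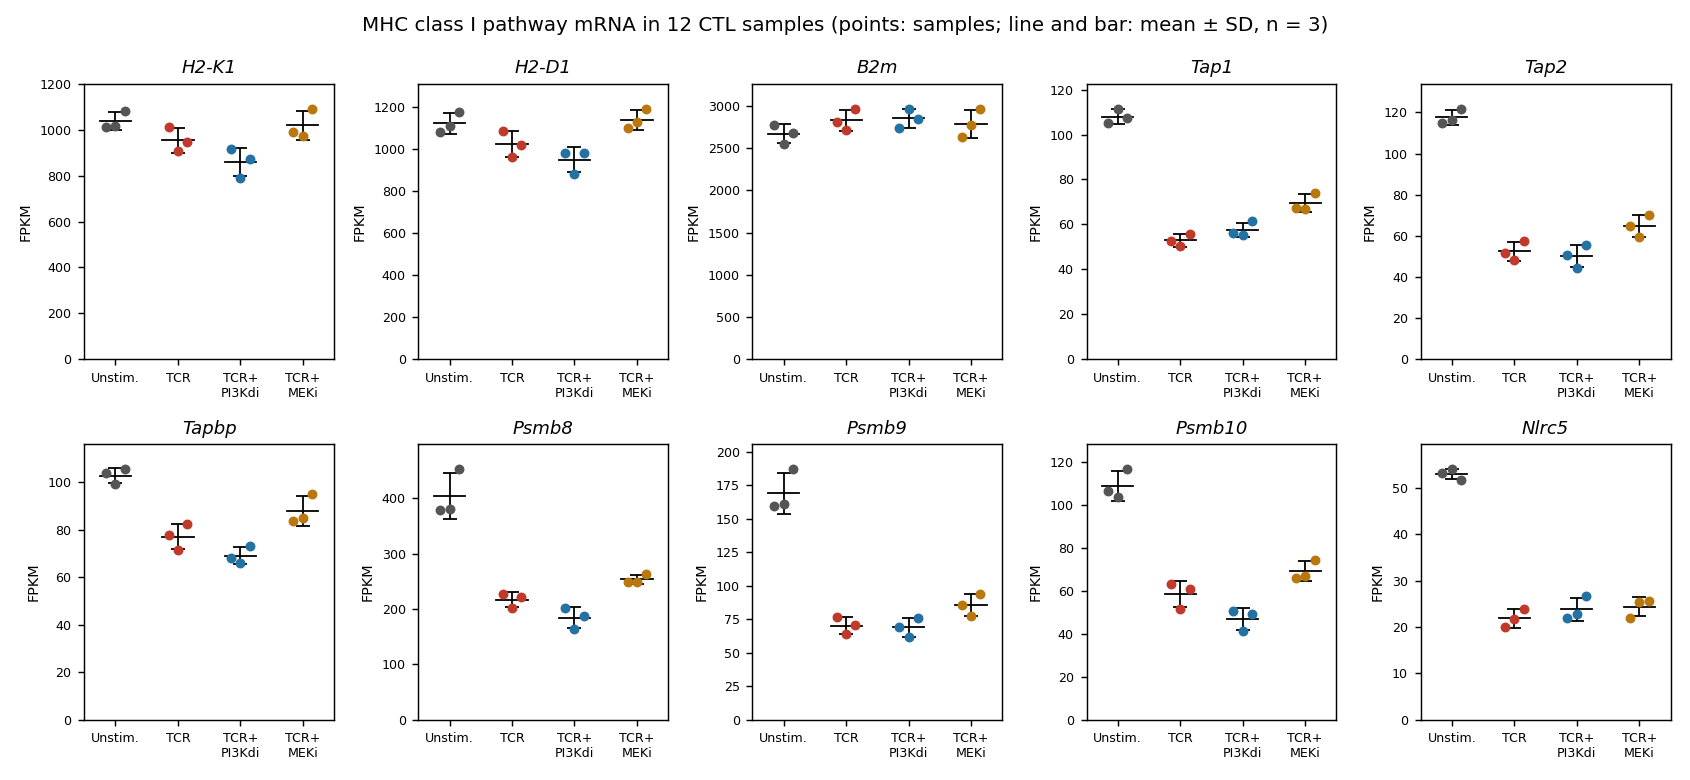
FPKM (linear axis from 0) of each of the 10 class I pathway genes in the 4 groups. Points are samples, the horizontal line and bar are the mean ± SD of 3 samples. Tap1, Tap2, Tapbp, Psmb8, Psmb9, Psmb10 and Nlrc5 are higher in every unstimulated sample than in every other sample, while the B2m samples of all groups lie between 2551 and 2969 FPKM.

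The products of the heavy chain genes bind the peptide, and that of H2-D1 presents gp33-41 to the P14 receptor. H2-K1 was at 1013, 1017 and 1085 FPKM in the unstimulated samples and at 1011, 906 and 947 in the TCR samples. H2-D1 was at 1080, 1107 and 1177 FPKM in the unstimulated samples and at 1084, 960 and 1018 in the TCR samples. For H2-K1 the TCR samples all lay below the unstimulated ones, by a narrow margin in replicate 1, and for H2-D1 the groups overlapped. The differences were -0.12 ± 0.071 (log2 fold change ± SE, limma adjusted p = 0.139) for H2-K1 and -0.14 ± 0.068 (limma adjusted p = 0.0879) for H2-D1. H2-D1 was called without TCR replicate 1, at -0.18. With a common FPKM sum both genes were called lower, at -0.53 and -0.55, which is -0.12 and -0.14 relative to the median of all genes. Quantile normalisation also called both lower, H2-K1 at -0.51 (limma adjusted p = 4.0e-06) and H2-D1 at -0.53 (limma adjusted p = 3.3e-07), which is -0.46 and -0.48 relative to the median, so that the size of their change depended on the normalisation. The ratio of H2-K1 to H2-D1 within a sample, which no factor common to a sample can change, was 0.926 ± 0.0104 in unstimulated CTL and 0.936 ± 0.00759 in TCR.

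B2m, the light chain shared by all class I molecules, was at 2777, 2551 and 2685 FPKM in the unstimulated samples and at 2809, 2719 and 2963 in the TCR samples. The groups overlapped. Its difference was 0.08 ± 0.073 (log2, limma adjusted p = 0.322), and its direction depended on the scaling: it was -0.33 on the TPM scale (limma adjusted p = 0.00023), where the median gene stood at -0.41, and -1.18 after quantile normalisation (limma adjusted p = 3.6e-09). Quantile normalisation sets a value by its rank within the sample. By mean FPKM B2m was 7th of all genes in unstimulated CTL and 20th in TCR. The part of this shift in the value of -1.18 was not tested.

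Both TAP subunits fell by more than 2-fold. Tap1 was at 105, 112 and 107 FPKM in the unstimulated samples and at 52.5, 50.3 and 55.8 in the TCR samples, 2.04-fold lower (log2 fold change -1.03 ± 0.0598, limma adjusted p = 9.2e-10). Tap2 was at 115, 116 and 122 FPKM in the unstimulated samples and at 51.8, 48.3 and 57.4 in the TCR samples, 2.25-fold lower (-1.17 ± 0.0835, limma adjusted p = 1.0e-08). No TCR sample reached the lowest unstimulated sample for either gene. Tapbp, which bridges TAP and the heavy chain, moved less, from 104, 99.0 and 105 FPKM to 77.7, 71.5 and 82.2, 1.33-fold lower (-0.42 ± 0.0653, limma adjusted p = 4.7e-05).

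The 3 immunoproteasome subunits fell as well. Psmb8 was at 379, 381 and 452 FPKM in the unstimulated samples and at 227, 202 and 223 in the TCR samples, 1.86-fold lower (-0.89 ± 0.0813, limma adjusted p = 1.6e-07). Psmb9 was at 160, 161 and 187 FPKM in the unstimulated samples and at 76.8, 63.8 and 70.5 in the TCR samples, 2.403-fold lower (-1.26 ± 0.0927, limma adjusted p = 1.3e-08). Psmb10 was at 107, 104 and 117 FPKM in the unstimulated samples and at 63.4, 51.8 and 60.9 in the TCR samples, 1.86-fold lower (-0.90 ± 0.0882, limma adjusted p = 3.6e-07). In each of these genes the 2 groups stood apart. Unstimulated replicate 3 was the highest sample for all 3 subunits.

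Nlrc5, the activator of class I genes, showed the steepest fitted fall of the 10. It was at 53.4, 54.0 and 51.8 FPKM in the unstimulated samples and at 19.9, 21.7 and 23.95 in the TCR samples, 2.43-fold lower (-1.28 ± 0.0862, limma adjusted p = 5.0e-09). The highest TCR sample was below every unstimulated sample. It differed from the change of Psmb9 by less than 1 SE of either. The calls of the 7 genes that fell held in every alternative and without each replicate.

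**Figure D2:**
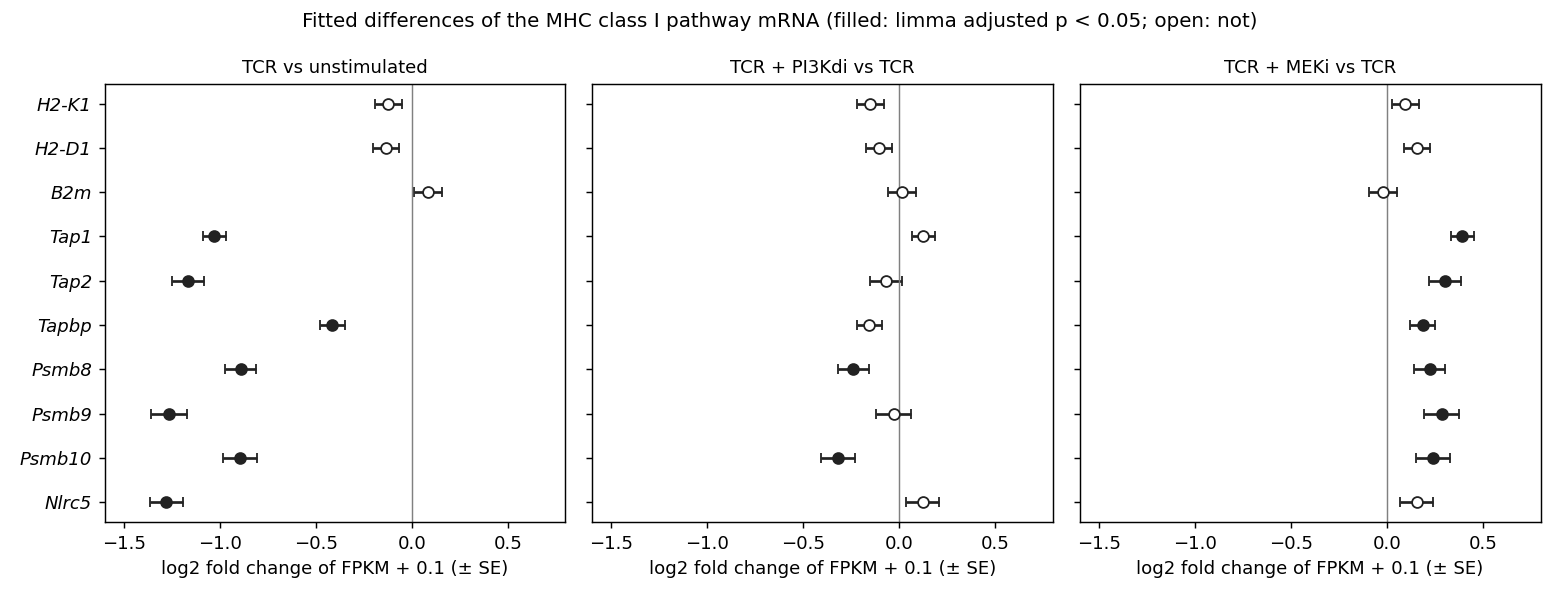
Fitted log2 fold change of FPKM + 0.1 (x axis, ± SE) of each gene for TCR against unstimulated, TCR + PI3Kdi against TCR and TCR + MEKi against TCR. Filled points passed a limma adjusted p under 0.05. On the left 7 genes lie between -1.28 and -0.42, in the middle panel 2 are filled, both lower, and on the right 6 are filled, all higher.

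The constitutive subunits that the immunoproteasome replaces did not follow it. All 3 were higher in TCR on the deposited scale: Psmb5 by 0.30 ± 0.106 (log2, limma adjusted p = 0.0224), Psmb6 by 0.44 ± 0.0717 (limma adjusted p = 7.1e-05) and Psmb7 by 0.31 ± 0.0495 (limma adjusted p = 5.5e-05). With a common FPKM sum Psmb5 and Psmb7 were at -0.12 and -0.10 and none of the 3 was called. The ratio of paired subunits within a sample is free of any factor common to that sample. Psmb8 over Psmb5 was 4.53, 4.51 and 4.39 in the unstimulated samples and 1.79, 1.94 and 2.18 in the TCR samples. Psmb9 over Psmb6 went from 1.18 ± 0.0513 to 0.362 ± 0.00249, and Psmb10 over Psmb7 from 0.604 ± 0.0240 to 0.263 ± 0.0290. The samples of the 2 groups did not overlap in any of the 3 ratios. An exact permutation test of 3 against 3 samples cannot go below p = 0.10, so the ratios are given as values.

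**Figure D3:**
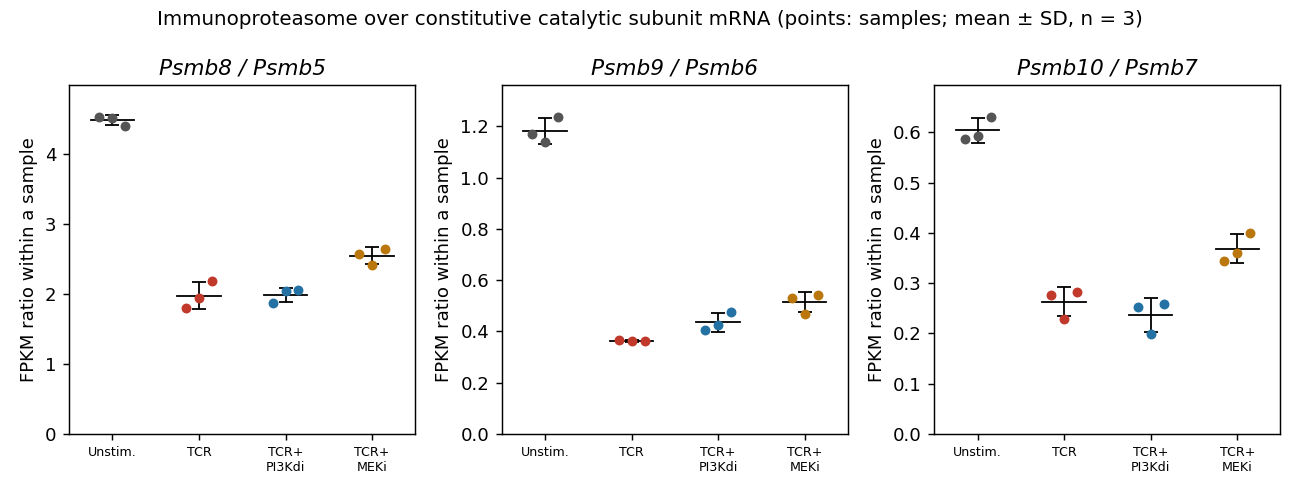
Ratio of FPKM within each sample (linear axis from 0) of each immunoproteasome subunit to the constitutive subunit it replaces, in the 4 groups. Points are samples, lines and bars the mean ± SD of 3 samples. All 3 ratios are highest in unstimulated CTL, and in TCR + MEKi every sample lies above every TCR sample.

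The 10 genes lie on 3 chromosomes. On RefSeq GRCm38.p6 (the mm10 assembly the authors used) Psmb9 (chr17:34182030-34187330), Tap1 (chr17:34187556-34197225), Psmb8 (chr17:34198195-34201454) and Tap2 (chr17:34204479-34216321) lie side by side within 34.3 kb. Tapbp (chr17:33919478-33929290), H2-K1 (chr17:33996012-34000619) and H2-D1 (chr17:35263094-35267497) are on the same chromosome, B2m is at chr2:122147687-122153082, and Nlrc5 (chr8:94434335-94527272) and Psmb10 (chr8:105935728-105938392) are on chromosome 8. The genes that fell lie on chromosomes 17 and 8. RefSeq promoter sequence was at hand for 8 of the 10 genes, and the 250 bases before each start were searched on both strands for the interferon response motif GAAANNGAAA, the STAT motif TTCNNNGAA, the κB consensus, TGACG (the core of the X2 box of class I promoters) and the Y box ATTGG. A κB match, which 7.25% of 32851 promoters hold, was found in H2-K1, H2-D1 and B2m. None was found in the 5 others searched (Tap1, Tapbp, Psmb8, Psmb9 and Psmb10). The κB matches of H2-K1 and H2-D1 have the same letters. Tap2 and Nlrc5, which fell, were not searched, and a link between matches and changes was not tested. H2-K1, H2-D1 and B2m also held TGACG and ATTGG on 1 strand with starts 25 bases apart. This spacing was found in 0.0913% of promoters and was noticed after the matches were seen. The 30 bases from the first to the last of these letters are shown for the 3 chain genes because they are the shared element, with both motifs in capitals:
H2-K1, chr17:34000359-34000388, minus strand: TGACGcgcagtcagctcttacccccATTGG
H2-D1, chr17:35262993-35263022, plus strand: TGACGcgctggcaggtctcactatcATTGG
B2m, chr2:122147609-122147638, plus strand: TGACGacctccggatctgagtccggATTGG

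Further upstream the 3 genes hold their κB matches, in capitals in the next lines. In B2m the capitals also mark the match to the interferon response motif, which was found in no other of the 8 windows and in 2.98% of all promoters. Only the exact letters GAAANNGAAA were searched, so a window without a match may still hold another form of this element.
H2-K1, chr17:34000438-34000467, minus strand: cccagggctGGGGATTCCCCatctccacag
H2-D1, chr17:35262914-35262943, plus strand: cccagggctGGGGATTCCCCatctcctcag
B2m, chr2:122147548-122147577, plus strand: GAAACTGAAAatgGGAAAGTCCCtttgtaa

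Among the genes that fell, Psmb9 and Tap1 are read in opposite directions from an interval of 225 bases. TGACG and ATTGG (as CCAAT) both occurred in it but 136 bases apart in the order of the plus strand, and Psmb8 held 1 STAT motif, present in 7.02% of promoters. The stretches are shown with the matches in capitals to set beside those of the chain genes:
Psmb9 to Tap1 interval, chr17:34187458-34187487, plus strand: cccagagacaggTGACGacagagggtcctg
Psmb9 to Tap1 interval, chr17:34187331-34187360, plus strand: tttCCAATcagcggctgcgcgcggtgcagg
Psmb8, chr17:34198088-34198117, plus strand: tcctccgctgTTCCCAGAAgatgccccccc
A match is a run of letters and was not tested as a binding site. GENCODE M21 annotates longer transcripts of H2-D1, Psmb8 and Psmb9 whose first exons cover the stretches shown, and that of Psmb9 overlaps Tap1 on the other strand. The libraries were stranded, but the sources do not say if strand entered the counting, so reads of this overlap may belong to either gene. H2-K1 has a second RefSeq start close to the one used. Its RefSeq span on the minus strand runs to 34000619, so the stretches shown for it lie inside that span, although no GENCODE exon overlapped the window searched. Of the 100-base stretches of the H2-D1 transcript, 4.64% also occur in transcripts of other class I genes, H2-T23 among them, and how such reads were counted is not stated. For H2-K1, B2m, Tap1, Tap2, Psmb8, Psmb9, Psmb10 and Nlrc5 that share was 0, and for Tapbp it was 0.104%.

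The other genes of the pathway are given by list, beside the 33.6% of all genes that were higher and the 34.9% that were lower. With a common FPKM sum 8390 of the 11022 genes were called and only 20.0% of these calls were higher, so most genes called there were lower. The plot of list changes sets them side by side. Of 9 measured nonclassical and other class I genes, 3 rose, 4 fell and 2 did not pass, with a median of -0.03, shares near those of all genes. H2-T24 rose 2.03-fold (1.02 ± 0.113, limma adjusted p = 1.2e-06) and Mr1, which presents vitamin B metabolites, fell 2.20-fold (-1.14 ± 0.162, limma adjusted p = 1.8e-05). Of 12 genes for peptide loading and trimming, 3 rose, 4 fell and 5 did not pass, with a median of -0.06, again near those of all genes, and with a common FPKM sum 3 rose and 9 fell. The chaperone Calr, which holds heavy chains in the loading complex, rose 1.54-fold (limma adjusted p = 2.25e-07), Hspa5, a general chaperone of the endoplasmic reticulum, rose 2.32-fold (limma adjusted p = 3.15e-10), and Erap1, which trims peptides, fell 1.30-fold (limma adjusted p = 0.00042). Of 5 proteasome activator and assembly genes, 2 rose and 3 did not pass, and with a common FPKM sum these 3 fell. Psme2 rose 1.53-fold (0.61 ± 0.0811, limma adjusted p = 8.6e-06), while its partner in the PA28 activator, Psme1, was at 0.08 ± 0.0591 (limma adjusted p = 0.222) and at -0.33 on the TPM scale. Psme2 over Psme1 was 0.836 ± 0.00769 in unstimulated CTL and 1.21 ± 0.0625 in TCR.

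Among 13 measured regulators of class I genes, 3 rose, 6 fell and 4 did not pass, and with a common FPKM sum 2 rose and 11 fell. In that setting 8390 of the 11022 genes were called, 20.0% of them higher. Irf1, a transcription factor of the interferon-γ response, was at 56.6, 50.8 and 56.1 FPKM in the unstimulated samples and at 12.1, 11.8 and 13.4 in the TCR samples, 4.36-fold lower (-2.12 ± 0.0719, limma adjusted p = 2.1e-12). The NF-κB subunits Nfkb1 and Rela went the other way, 2.90-fold and 2.31-fold higher (limma adjusted p = 1.3e-11 and 1.7e-10). Of 8 genes of interferon-γ signalling, 2 rose, 5 fell and 1 did not pass. Ifng itself rose 408-fold, from 72.4 ± 3.33 to 29597 ± 1379 FPKM (limma adjusted p = 2.3e-18). The receptor genes Ifngr1 and Ifngr2 were 3.88-fold and 6.21-fold lower (limma adjusted p = 4.75e-14 and 4.5e-07). Ifngr1 went from 195 ± 6.45 to 50.1 ± 1.24 FPKM. Ifngr2 went from 3.85 ± 0.474 to 0.56 ± 0.243 FPKM, so low that its fold is uncertain. The kinase gene Jak2 was 4.77-fold higher (limma adjusted p = 2.0e-11) and Socs1, an inhibitor of the pathway, was 3.28-fold lower (limma adjusted p = 1.0e-08). Of the cell type markers, Prf1 rose 2.25-fold (limma adjusted p = 3.22e-10), Cd74, the class II invariant chain, rose 5.49-fold to 7.22 ± 0.592 FPKM (limma adjusted p = 3.59e-06), Cd4 rose 3.33-fold to 2.69 ± 0.168 FPKM (limma adjusted p = 9.53e-05) and Klrb1c, an NK cell marker, fell 2.88-fold to 1.79 ± 0.142 FPKM (limma adjusted p = 4.79e-07), and their part in the results above was not tested. The rise of Ifng mRNA stood beside lower mRNA of its receptor, of Irf1, and of 7 of the 10 class I pathway genes in the same samples, and a link between them was not tested.

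**Figure D4:**
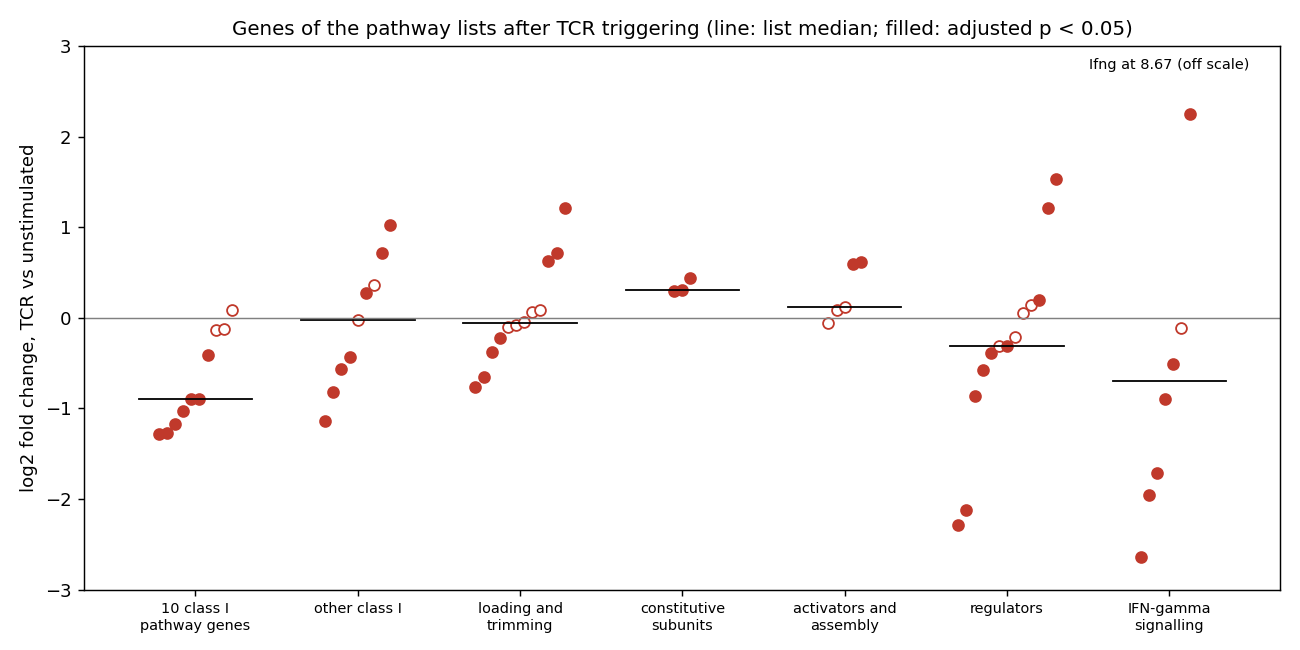
Fitted log2 fold change of FPKM + 0.1 in TCR against unstimulated CTL (y axis) for the 10 class I pathway genes and 6 further lists. Each point is a gene, filled at a limma adjusted p under 0.05, and lines are list medians. The 10 genes have a median of -0.89, the constitutive subunits of 0.31 (-0.10 on the TPM scale), and Ifng at 8.67 is off the scale.

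With PI3K p110δ inhibited during retriggering, few of the 10 genes passed the test. Against TCR, 2 of the 10 were lower at an adjusted p under 0.05, against 12.8% of all genes, and 0 were higher, against 12.7%. The median log2 fold change was -0.09, beside 0.02 over all genes. Between samples of the same replicate number 6 genes were lower in all 3 pairs (H2-K1, H2-D1, Tap2, Tapbp, Psmb8 and Psmb10) and 2 were higher (Tap1 and Nlrc5). The share of all genes with 3 pairs in 1 direction was not computed, so these counts are a description only. With the number as a block 3 genes were called. The 2 called without the block were immunoproteasome subunits. Psmb10 was at 50.7, 41.3 and 49.3 FPKM with the inhibitor, each sample below all TCR samples, 1.25-fold lower (-0.32 ± 0.0882, limma adjusted p = 0.0164). Psmb8 was at 202, 165 and 187 FPKM, and its highest sample lay just below the lowest TCR sample, 1.18-fold lower (-0.24 ± 0.0813, limma adjusted p = 0.0431). Psmb9, the partner subunit, was at 69.3, 61.8 and 75.7 FPKM and at -0.03 ± 0.0927 (limma adjusted p = 0.842).

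These 2 calls were not firm. Neither gene was called without TCR replicate 1, TCR replicate 3 or TCR + PI3Kdi replicate 2, which left 0 calls, and Psmb8 was not called without TCR + PI3Kdi replicate 3, which left 1. On the TPM scale the median gene moved to 0.19, and 4366 of the 11022 genes were called, 87.3% of them higher in place of 49.8%. Psmb8 and Psmb10 were at -0.06 and -0.14 there and not called. Tap1, Nlrc5 and B2m were called higher, and the uncalled H2-K1, H2-D1, Tap2, Tapbp and Psmb9 changed sign. After quantile normalisation Psmb8 was not called either, and B2m (0.37) and Tap1 (0.20) were called higher. The ratios within a sample overlapped between the 2 groups for Psmb8 over Psmb5 (1.98 ± 0.102 against 1.97 ± 0.195) and for Psmb10 over Psmb7 (0.236 ± 0.0334 against 0.263 ± 0.0290). Psmb9 over Psmb6 was 0.404, 0.425 and 0.474, above every TCR sample. Its numerator Psmb9 was at -0.03 and its denominator Psmb6 was called lower, at -0.29 (limma adjusted p = 0.0089). Psmb7 was called lower as well, at -0.16 (limma adjusted p = 0.0263), and Psmb5, at -0.25, was not called. On the TPM scale none of these 3 constitutive subunits was called.

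The other genes were not called. Tapbp was at 68.0, 66.1 and 73.2 FPKM (-0.16 ± 0.0653, limma adjusted p = 0.0917), and with replicate number as a block it was called at limma adjusted p = 0.0275, as it was without TCR replicate 2. H2-K1, at 916, 792 and 873 FPKM, was at -0.15 ± 0.0707 (limma adjusted p = 0.132), H2-D1, at 980, 879 and 982 FPKM, at -0.11 ± 0.068 (limma adjusted p = 0.264), and B2m, at 2745, 2969 and 2845 FPKM, at 0.01 ± 0.0729 (limma adjusted p = 0.923). Tap1, at 56.3, 55.4 and 61.3 FPKM, was at 0.12 ± 0.0598 (limma adjusted p = 0.143), Tap2, at 50.4, 44.4 and 55.3 FPKM, at -0.07 ± 0.0835 (limma adjusted p = 0.572), and Nlrc5, at 21.9, 22.8 and 26.7 FPKM, at 0.12 ± 0.0862 (limma adjusted p = 0.33). A p that misses the threshold does not show equality. In the same comparison Irf1 was 1.21-fold higher (limma adjusted p = 0.0114), Psme2 was 1.33-fold lower (limma adjusted p = 0.0019), and Ifngr1 was 2.30-fold higher (limma adjusted p = 1.5e-09). Of the 5 other cell type markers measured, Cd74 alone was called, 3.19-fold lower (limma adjusted p = 0.000974), and of the 6 CTL markers Cd8a (-0.15), Cd8b1 (-0.28) and Prf1 (-0.24) were called lower and Cd3e (0.16) higher. The part of these markers in the values of the 10 genes was not tested.

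Inhibition of MEK during retriggering raised the processing genes part of the way towards their unstimulated level. Against TCR, 6 of the 10 were higher at an adjusted p under 0.05, against 18.9% of all genes, and 0 were lower, against 18.2%. The median log2 fold change was 0.21, beside 0.01 over all genes. The 6 were Tap1, Tap2, Tapbp, Psmb8, Psmb9 and Psmb10, that is all the transport, loading and immunoproteasome genes of the set. Tap1 was at 67.2, 67.0 and 74.1 FPKM with the inhibitor, above every TCR sample, 1.31-fold higher (0.39 ± 0.0598, limma adjusted p = 0.00016). Tap2 was at 64.7, 59.3 and 70.0 FPKM, also above every TCR sample, 1.23-fold higher (0.30 ± 0.0835, limma adjusted p = 0.0114).

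The smaller changes followed the same direction. Psmb9 was at 85.8, 77.5 and 93.9 FPKM, 1.22-fold higher (0.29 ± 0.0927, limma adjusted p = 0.0261). Psmb10 was at 66.0, 67.2 and 74.6 FPKM, 1.18-fold higher (0.24 ± 0.0882, limma adjusted p = 0.0435), and Psmb8 at 249, 248 and 263 FPKM, 1.17-fold higher (0.22 ± 0.0813, limma adjusted p = 0.0428). Each sample of these 3 lay above all TCR samples. Tapbp was at 83.6, 84.9 and 95.0 FPKM, 1.14-fold higher (0.19 ± 0.0653, limma adjusted p = 0.0359). Psmb8 over Psmb5 was 2.57, 2.42 and 2.64, Psmb9 over Psmb6 was 0.530, 0.468 and 0.543 and Psmb10 over Psmb7 was 0.344, 0.361 and 0.400, each above all TCR samples and below all unstimulated samples. The denominators moved as well. Against TCR, Psmb6 was called lower, at -0.21 (limma adjusted p = 0.0302), and so was Psmb7, at -0.25 (limma adjusted p = 0.0013). Psmb5, at -0.15, was not called, and on the TPM scale none of these 3 was.

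Nlrc5 was not called: it was at 22.02, 25.5 and 25.6 FPKM, overlapping the TCR samples, with a difference of 0.16 ± 0.0862 (limma adjusted p = 0.172). H2-K1, at 993, 975 and 1093 FPKM, differed by 0.10 ± 0.0707 (limma adjusted p = 0.311), H2-D1, at 1099, 1125 and 1190 FPKM, by 0.16 ± 0.068 (limma adjusted p = 0.0828), and B2m, at 2639, 2771 and 2968 FPKM, by -0.02 ± 0.0729 (limma adjusted p = 0.856). The call of Tap1 held in every alternative and without each replicate. The other calls rested on few samples: 1 gene remained called without TCR replicate 2 or without TCR + MEKi replicate 3, 3 without TCR replicate 3 or without TCR + MEKi replicate 1, and 4 without TCR + MEKi replicate 2. On the TPM scale the median gene moved to 0.26, and 6183 of the 11022 genes were called. Of those calls 89.5% were higher, in place of 50.9%. All 10 genes were called higher there, B2m included, and 9 lay above that median. Quantile normalisation called 9 higher, all but Nlrc5. H2-K1 was at 0.31 (limma adjusted p = 0.0015), H2-D1 at 0.38 (limma adjusted p = 5.4e-05) and B2m at 0.47 (limma adjusted p = 0.0003). There the median gene stood at 0.02, and 3783 of the 11022 genes were called, 54.8% of them higher. Irf1 was 1.31-fold higher in this comparison (limma adjusted p = 0.00074), and Psme2 was at -0.01 ± 0.0811 (limma adjusted p = 0.944). Of the other cell type markers Cd4 was 5.27-fold lower (limma adjusted p = 2.3e-05) and Cd74 1.76-fold lower (limma adjusted p = 0.0452), and of the CTL markers Prf1 was 1.57-fold lower (limma adjusted p = 1.8e-06) and Cd8a 1.16-fold higher (limma adjusted p = 0.00517). Their part in the values of the 10 genes was not tested.

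Set directly against each other, the inhibitor groups differed in 8 of the 10 genes. All 8 were higher in TCR + MEKi than in TCR + PI3Kdi, against 14.5% of all genes, and the median log2 fold change was 0.29, beside -0.01 over all genes. Its fold changes do not use the TCR samples, which the comparisons of each inhibitor with TCR share, while its standard errors come from the fit of all 12 samples. The widest differences were those of Psmb10 (1.47-fold, 0.56 ± 0.0882, limma adjusted p = 0.00025) and Psmb8 (1.38-fold, 0.46 ± 0.0813, limma adjusted p = 0.00061), followed by Tap2 (1.29-fold, limma adjusted p = 0.0038), Tapbp (1.27-fold, limma adjusted p = 0.0011) and Psmb9 (1.24-fold, limma adjusted p = 0.019). Tap1 was 1.20-fold higher (limma adjusted p = 0.0037), and so was H2-D1 (limma adjusted p = 0.0085), while H2-K1 was 1.19-fold higher (limma adjusted p = 0.0162). Each sample of these 8 genes with the MEK inhibitor lay above all samples with the PI3K inhibitor. These genes were already picked by their calls, and the share of all genes that stood apart in this way was not computed. H2-K1 and Psmb9 were not called without TCR + PI3Kdi replicate 2 or without TCR + MEKi replicate 3. B2m (-0.03 ± 0.0729, limma adjusted p = 0.778) and Nlrc5 (0.04 ± 0.0862, limma adjusted p = 0.788) were not called. With a common FPKM sum 8 were called as well, with the median gene at 0.07 and the genes called higher at 69.5% of all calls in place of 50.1%. Those calls numbered 3341 of the 11022 genes.

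Neither inhibitor group was back at the unstimulated level. With the PI3K inhibitor 9 of the 10 genes were lower than in unstimulated CTL, against 30.8% of all genes, 5 of them by more than 2-fold, against 7.43%: Psmb9, Tap2, Psmb10, Nlrc5 and Psmb8. Here H2-K1 (1.21-fold lower, limma adjusted p = 0.0037) and H2-D1 (1.18-fold lower, limma adjusted p = 0.0059) were called too. With the MEK inhibitor 7 of the 10 were lower, against 30.7% of all genes, and Nlrc5 alone was lower by more than 2-fold (2.18-fold, limma adjusted p = 3.4e-08), against 6.46%. The next was Psmb9, at 1.97-fold lower, which brought that count to 2 without unstimulated replicate 1, unstimulated replicate 2 or TCR + MEKi replicate 3. Tap1 was 1.56-fold lower (limma adjusted p = 3.1e-07) and Tapbp 1.17-fold lower (limma adjusted p = 0.0074), and H2-K1 and H2-D1 were at -0.03 and 0.02 and not called, although quantile normalisation called both lower, at -0.20 and -0.14, and B2m at -0.72. These 2 comparisons and that of TCR share the unstimulated samples.

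In order of level, Tap1, Tap2, Tapbp, Psmb8, Psmb9 and Psmb10 thus ran from unstimulated through TCR + MEKi down to the other 2 groups. TCR and TCR + PI3Kdi, the lowest neighbours, did not differ in Tap1, Tap2, Tapbp and Psmb9 by the main test on the deposited scale. On that scale Nlrc5 had a high unstimulated level and 3 lower levels of which no pair was called different. On the TPM scale Nlrc5 was called higher than in TCR with the PI3K inhibitor (0.30, limma adjusted p = 0.0255) and with the MEK inhibitor (0.42, limma adjusted p = 0.0023). The median genes stood at 0.19 and 0.26 there.

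The genes whose pattern over the 12 samples was most like that of the set were sought among 10951 genes outside it and outside the lists, by Pearson's r between log2(FPKM + 0.1) and the mean of the 10 standardised profiles. The 8 highest were Aes (r = 0.976), Tmem134, Os9, Pmf1, Akt1, Klhl30, Cuta and Tagln2 (r = 0.968). Aes, the highest of them, was at 265 ± 6.45 FPKM in unstimulated CTL, 143 ± 12.9 in TCR, 128 ± 14.5 in TCR + PI3Kdi and 191 ± 12.7 in TCR + MEKi. Within the set r with the mean profile ran from 0.81 (H2-D1) to 0.985 (Tapbp) for 9 genes and was -0.374 for B2m. Each of the 10 genes is itself part of that mean, which raises its r, so these values are not comparable with those of the outside genes. The points share libraries and scaling, and the ranking is a description only.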

How the data were processed

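The 10 genes and the gene lists were chosen with earlier results of these data known. RNA was sequenced from TruSeq stranded mRNA libraries of 12 samples, grouped by their labels. The authors aligned reads to mm10 with STAR 2.4.2a, counted them per RefSeq gene with Subread 1.5.0, removed low genes with filterByExpr, and deposited FPKM computed in edgeR from TMM-normalised counts and summed exon length. Value columns without a sample numbered 0.

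Group means of log2(FPKM + 0.1) were estimated for the 11022 genes from the 12 samples together in limma 3.58.1 (R 4.3.3; eBayes with a trend), without a replicate term. Adding 0.1 slightly understates the change of low genes. Genes were called at an adjusted p under 0.05 and, where stated, a change over 2-fold. Where samples of the groups are said to stand apart, the share of all genes that do so was not computed. All 10 genes are named, and list genes were named if called past 2-fold in TCR against unstimulated or if fixed by name (Psmb5, Psmb6, Psmb7, Psme1, Psme2, Irf1, Ifng, Calr, Erap1), except for items not reported here. The script was tested on simulated data. Python 3.11.15 was used for summaries.

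Depth was estimated from FPKM steps with GENCODE M21 exon lengths, and read counts cover counting error only. The p-values measure the spread between these cultures. Deviations of same-numbered samples correlated with r from 0.117 to 0.451 in the comparisons of the inhibitor groups with TCR, with each other, and of MEKi with unstimulated. There the numbers could be read as pairs in descriptions, but the main fit used no pairs in any comparison. In TCR and TCR + PI3Kdi against unstimulated the lowest r were 0.0037 and -0.0615 and the highest 0.153 and 0.114, so pairs were left undecided there. Whether equal numbers stand for 1 mouse is not stated. Alternatives were pseudocounts of 1 and 0.01, a mean FPKM of at least 1, a common FPKM sum (TPM scale), quantile normalisation, leaving out each replicate, fitting only the groups compared, and replicate number as a block.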

Additional observations from a re-analysis of the deposited data

How the results depend on the processing

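The number of genes called stayed within 1.5 times of the reported one under both other pseudocounts and the filter at a mean FPKM of at least 1 in all 6 comparisons. It also did with replicate number as a block, where 3 genes in place of 2 were called in TCR + PI3Kdi against TCR, Tapbp being the third, and no other call changed. With the compared groups fitted alone 1 gene was called in TCR + PI3Kdi against TCR. The TPM scale gave 10 called genes in TCR + MEKi against TCR, where 6183 of all genes were called. It gave 3 past 2-fold in TCR + MEKi against unstimulated, where 1663 of all genes were. Quantile normalisation gave 7 genes past 2-fold in TCR against unstimulated and 2 in TCR + MEKi against unstimulated, where 2137 and 1485 of all genes were. With each replicate left out in turn, 0 to 3 genes were called in TCR + PI3Kdi against TCR, 1 to 6 in TCR + MEKi against TCR, and 1 to 2 past 2-fold in TCR + MEKi against unstimulated.

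The log2 fold changes that turned sign were all of genes not called on the deposited scale. With TPM scaling first and quantile normalisation second, B2m was at -0.33 and -1.18 in TCR against unstimulated, 0.24 and 0.47 in TCR + MEKi against TCR, 0.0478 and 0.098 in TCR + MEKi against TCR + PI3Kdi, -0.14 and -0.81 in TCR + PI3Kdi against unstimulated and -0.0876 and -0.72 in TCR + MEKi against unstimulated. In TCR + PI3Kdi against TCR the 2 scalings put H2-K1 at 0.0307 and 0.0243, H2-D1 at 0.0743 and 0.0783 and Psmb9 at 0.15 and 0.0601, and the TPM scale put Tap2 at 0.11 and Tapbp at 0.0248. H2-D1 was at -0.13 and -0.14 in TCR + MEKi against unstimulated. The cause was not tested. With each replicate left out in turn, the range in TCR + PI3Kdi against TCR was -0.0176 to 0.0450 for B2m, -0.15 to 0.0122 for Tap2 and -0.10 to 0.0468 for Psmb9. For B2m it was -0.0649 to 0.0198 in TCR + MEKi against TCR and -0.0766 to 0.00819 in TCR + MEKi against TCR + PI3Kdi, where Nlrc5 ran from -0.0222 to 0.12. In TCR + MEKi against unstimulated it was -0.0765 to 0.00597 for H2-K1 and -0.0114 to 0.0570 for H2-D1.

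Of 360 fold changes recomputed without a replicate, 313 kept their direction and side of the threshold, 30 lost and 3 gained a call and 14 turned sign. Of 420 under the other alternatives these were 378, 5, 17 and 20. The lowest coverage of the 10 genes was an estimated 538 reads, for Psmb10.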
